A study of Mus musculus with 10 samples.

Results

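The endoplasmic reticulum (ER) folding and translocation genes are 40 genes for proteins that take new chains into the ER, fold them, or remove those that fail to fold. Members were listed by gene symbol with earlier results of these data known, so the counts of members called are not those of an unselected list. Each was read from its own probe set with the highest mean over the 10 arrays. Of the 40, 39 have a probe set that names them alone, and all 39 passed the intensity filter, among 12496 genes tested of 18193 with a probe set of their own. Sec61g has no probe set that names it alone and was not analysed here. The arrays hold total RNA of mouse erythroleukemia (MEL) cells, a cultured line of red cell precursors transformed by a virus. The parental Mel-BirA line has 2 arrays, and its cells carry BirA, a biotin ligase from bacteria. The 4 subclones, FBB1.5 and FBB1.7 as well as FBB1.10 and FBB1.11, carry BirA too and, in addition, stably express BCL11A with a FLAG-Biotag (a FLAG epitope and a biotin acceptor tag), and each was measured on 2 arrays. BCL11A is a zinc finger repressor of fetal globin genes. Each subclone is 1 clone, and the sources used here do not give the promoter that drives the tagged gene. The parental arrays serve as control for all 4 subclones, so the 4 comparisons share them.

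Proteins bound for the cell surface or for secretion enter the ER through the Sec61 channel, lose their signal peptide to signal peptidase and receive N-linked glycans from oligosaccharyltransferase. Chaperones such as Hspa5 (BiP) and Hsp90b1 (GRP94) bind the unfolded chain, the lectin chaperones calnexin and calreticulin hold glycoproteins, and protein disulfide isomerases form their disulfide bonds. When unfolded chains build up, the sensors Ern1 (IRE1), Atf6 and PERK start the unfolded protein response, in which spliced Xbp1 and cleaved Atf6 raise transcription of many of these genes. Red cell precursors make haemoglobin in the cytosol, while their receptors and membrane proteins pass through the ER.

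Values are probe set intensities, and differences are on the scale of log2(intensity + 16), with the standard error (SE) of the limma fit. An adjusted p is Benjamini-Hochberg adjusted over all 25061 tested probe sets, and a member passed where it was under 0.05. Intensities of different probe sets were not set against each other, and are added only in the sums of marker lists. Whether the 2 arrays of each line stem from separate cultures is not stated, and p-values then measure no more than their spread, which may be technical.

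In FBB1.7 and FBB1.10 a group of members was higher than in the parental line, mainly chaperones, disulfide isomerases and subunits of oligosaccharyltransferase, and in FBB1.7 subunits of the translocon too. In FBB1.7, 14 members rose, where 4.29% of all genes did, and 1 member fell, where 6.39% of all genes did. In FBB1.10, 9 members rose and 0 fell, against 0.936% and 0.872% of all genes. In FBB1.5, 2 members rose and 0 fell, against 1.38% and 0.992%. In FBB1.11, 0 members passed in either direction with limma, against 0.064% and 0.12%. At an unadjusted p under 0.05, the same fit counts 12 of 39 members in FBB1.11, and 1488 of 12496 genes. In FBB1.11, 1 member passed after adjustment when any of its probe sets could count. The members' median log2 difference was 0.17 for FBB1.7 and 0.19 for FBB1.10, with 0.09 for FBB1.11 and -0.01 for FBB1.5, while the median over all tested genes lay between -0.02 and 0.01 in each. Without the array FBB1.7 1, the 15 calls of FBB1.7 became 9. All 9 calls of FBB1.10 and both calls of FBB1.5 were lost when the eBayes step ignored intensity.

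**Figure D1:**
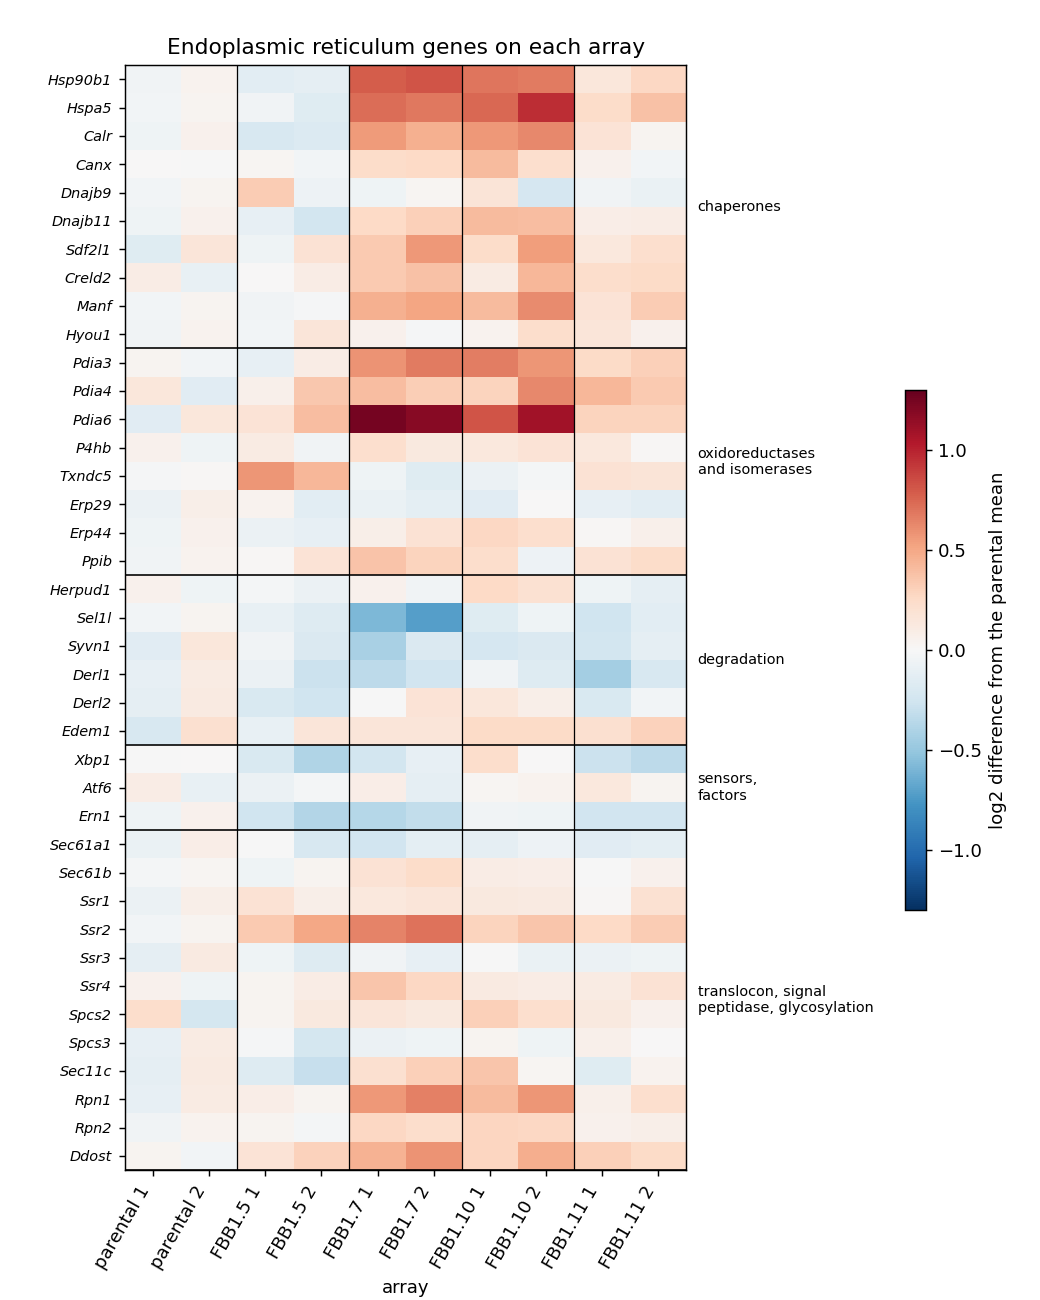
Log2 difference of each of the 39 tested members (rows, grouped by role) from the mean of the parental arrays, on each of the 10 arrays (columns, with vertical lines between cell lines); red is higher and blue lower. The columns of FBB1.7 and FBB1.10 are red for Hsp90b1, Hspa5, Calr, Pdia3, Pdia6, Rpn1 and Ddost, and most rows of the degradation genes and sensors are pale or blue.

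The promoters of the members that rose most are shown first, since several carry a known control element of the unfolded protein response. The ER stress element is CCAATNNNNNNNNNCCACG, with 9 free bases between the CCAAT end, known to bind NF-Y, and the CCACG end, known to bind Atf6. The search covered 250 bases before to 50 bases after each gene's start in RefSeq's promoters (build GRCm38.p6), on both strands. Of the 40 members 31 had a promoter there, and Manf, Hyou1, Erp29, Derl1, Atf6, Sec61a1, Ssr2, Spcs3 and Sec11c did not. The whole element stood in 7 of those 31 genes (22.6%), namely Hsp90b1, Hspa5, Calr, Canx, Creld2, Pdia6 and Syvn1, against 37 of 27025 genes in the table (0.137%). Many members are known genes of the unfolded protein response, so a high share was built into the list and is no result of these arrays. Each end alone was common, with CCAAT in 37.4% and CCACG in 32.8% of all promoters. Hsp90b1 held the element at 2 places, and the other 6 genes at 1. The 8 matches follow with 6 bases on each side, read from CCAAT to CCACG, with the 2 ends in capitals.
Hsp90b1, first: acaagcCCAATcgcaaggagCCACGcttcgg
Hsp90b1, second: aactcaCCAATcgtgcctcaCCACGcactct
Hspa5: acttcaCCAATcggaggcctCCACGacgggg
Calr: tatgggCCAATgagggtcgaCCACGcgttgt
Canx: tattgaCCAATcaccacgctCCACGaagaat
Creld2: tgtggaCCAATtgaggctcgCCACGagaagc
Pdia6: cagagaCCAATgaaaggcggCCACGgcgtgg
Syvn1: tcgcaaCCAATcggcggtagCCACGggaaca
The windows lie, in that order, at chr10:86705632-86705662 (minus strand), chr10:86705527-86705557 (plus strand), chr2:34772019-34772049 (plus), chr8:84847069-84847099 (plus), chr11:50325794-50325824 (minus), chr15:88819514-88819544 (minus), chr12:17266485-17266515 (plus) and chr19:6046526-6046556 (plus). The element began 212 and 107 bases before the start of Hsp90b1, 65 before Hspa5, 162 before Calr, 145 before Canx, 126 before Creld2, 98 before Pdia6 and 44 before Syvn1. The 9 free bases differ among all 8 matches, and 6 or 7 of the 9 are G or C in each. A match is a description of these letters and was not tested for binding.

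The 250 bases before the start are given for Pdia6, Hspa5 and Hsp90b1, which had the largest differences of all members, read 5′ to 3′ along the gene, with the ends of the elements in capitals. In Hsp90b1 the second element lies on the other strand, so it reads CGTGG first and ATTGG after it.
Pdia6: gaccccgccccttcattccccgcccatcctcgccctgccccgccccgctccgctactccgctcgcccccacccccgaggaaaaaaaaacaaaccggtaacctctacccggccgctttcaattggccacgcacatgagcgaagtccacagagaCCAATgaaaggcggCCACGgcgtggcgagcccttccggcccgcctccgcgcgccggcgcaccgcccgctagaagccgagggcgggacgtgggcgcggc
Hspa5: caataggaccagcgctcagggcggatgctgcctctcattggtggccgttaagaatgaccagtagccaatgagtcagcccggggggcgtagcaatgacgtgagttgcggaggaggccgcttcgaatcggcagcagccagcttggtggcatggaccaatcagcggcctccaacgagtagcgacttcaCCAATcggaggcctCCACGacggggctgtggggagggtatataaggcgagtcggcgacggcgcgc
Hsp90b1: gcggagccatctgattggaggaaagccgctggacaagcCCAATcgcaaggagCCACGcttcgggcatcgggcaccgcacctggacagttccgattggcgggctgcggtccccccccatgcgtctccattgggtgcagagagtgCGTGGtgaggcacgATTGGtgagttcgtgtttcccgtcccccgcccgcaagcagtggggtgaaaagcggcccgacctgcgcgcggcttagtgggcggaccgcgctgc
These stretches are chr12:17266339-17266588, plus strand, chr2:34771840-34772089, plus strand, and chr10:86705445-86705694, minus strand. They are rich in G and C, with 70.4% in Pdia6, 62.4% in Hspa5 and 66.8% in Hsp90b1. Of the 7 members with the element, Hsp90b1, Hspa5, Calr, Canx and Pdia6 passed in both FBB1.7 and FBB1.10, and Creld2 and Syvn1 passed in neither. Of the 23 tested members with a promoter in the table but no element, 7 rose in FBB1.7 and 3 did so in FBB1.10, and of the 9 members without a promoter there, 2 and 1 rose. Median log2 differences in FBB1.7 were 0.51, 0.16 and -0.02 for these sets, and in FBB1.10 they were 0.59, 0.16 and 0.03. The members were listed with earlier results known, and a link between the element and these differences was not tested. The related ER stress element II, ATTGGNCCACG, stood in Dnajb11 and Herpud1 and in 0.0365% of all promoters. The unfolded protein response element TGACGTGG stood in Txndc5 and in 0.676% of all promoters.

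Among the 10 chaperones, 6 rose in FBB1.7 (Hsp90b1, Hspa5, Calr, Canx, Sdf2l1 and Manf) and 5 in FBB1.10 (the same without Sdf2l1), and 0 passed in FBB1.5 or FBB1.11. The median log2 difference of the 10 was 0.40 for FBB1.7 and 0.40 for FBB1.10, with 0.14 for FBB1.11 and -0.02 for FBB1.5. Hsp90b1, the ER member of the HSP90 family, read 984 and 1042 on the parental arrays, 916 and 934 on those of FBB1.5, 1762 and 1797 for FBB1.7, 1648 and 1631 for FBB1.10 and 1124 and 1221 for FBB1.11. The arrays of FBB1.7 and FBB1.10 stood well above the other 6, FBB1.11 lay just above parental, and FBB1.5 below it. The log2 difference from parental was 0.80 (SE 0.07, 1.75-fold, limma adjusted p = 1.96e-05) in FBB1.7 and 0.69 (1.61-fold, adjusted p = 0.000307) in FBB1.10. In FBB1.11 it was 0.21 (95% interval 0.05 to 0.36, adjusted p = 0.280) and in FBB1.5 -0.13 (adjusted p = 0.456). The other probe set of Hsp90b1 gave 0.95, 0.91 and 0.51 in FBB1.7, FBB1.10 and FBB1.11 and passed in all 3. In FBB1.11 it lay just under the threshold (limma adjusted p = 0.0467), and Hsp90b1 was the 1 member that passed there by any probe set.

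Hspa5, the HSP70 chaperone that also holds the stress sensors inactive, read 831 and 878 for the parental line, 827 and 765 for FBB1.5, 1425 and 1380.1 for FBB1.7, 1443 and 1672 for FBB1.10 and 1007 and 1119 for FBB1.11. Both arrays of FBB1.7 and FBB1.10 were higher than every other array, and FBB1.11 again lay between them and the parental line. Its log2 difference was 0.70 (SE 0.09, 1.63-fold, limma adjusted p = 0.000231) in FBB1.7 and 0.85 (1.8-fold, adjusted p = 0.000301) in FBB1.10. A second probe set of Hspa5 passed in both subclones with 0.69 and 0.86, and the remaining, dimmer one gave 0.07 and 0.11 and passed in neither. Calr, the soluble lectin chaperone calreticulin, had intensities of 3215 and 3475 on the parental arrays, 2895 and 2949 on those of FBB1.5, 4906 and 4623 for FBB1.7, 4931 and 5156 for FBB1.10 and 3783 and 3420.1 for FBB1.11. FBB1.5 was the lowest line and FBB1.7 and FBB1.10 the highest, with no overlap between these and the others. The increase was 0.51 (SE 0.06, 1.42-fold, limma adjusted p = 0.000193) in FBB1.7 and 0.59 (1.51-fold, adjusted p = 0.000301) in FBB1.10, and all 3 probe sets of Calr passed in both, among them the 1 whose name does not mark probes shared with other genes. The calls of Hsp90b1, Hspa5 and Calr in FBB1.7 and FBB1.10 held when any 1 array was left out, with adjusted p of at most 0.0107.

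Canx is the membrane-bound counterpart, calnexin, and its probe sets differed in the size of the change. Intensities of the brightest Canx probe set were 2524 and 2507 on the parental arrays, 2566 and 2456 on those of FBB1.5, 2969 and 3017 for FBB1.7, 3344 and 2928 for FBB1.10 and 2607 and 2458 for FBB1.11, so the arrays of FBB1.7 and FBB1.10 again lay above all others. The log2 difference was 0.25 (SE 0.07, limma adjusted p = 0.0300) in FBB1.7 and 0.31 (adjusted p = 0.0303) in FBB1.10. A second probe set of Canx gave larger differences and passed in both, with 0.65 (limma adjusted p = 0.0114) and 0.71 (adjusted p = 0.0257). Its parental arrays stood far apart, at 808 and 545, with the low value on parental 2. That array has the highest ratio of 3′ over 5′ actin control probe sets, 1.80, and the part of RNA quality in this was not tested. A dim probe set of Canx gave 0.14 and -0.23 and passed in neither. Manf, a small secreted and ER-resident protein induced by ER stress, read 312 and 330.0 for the parental line, 311 and 317 for FBB1.5, 449.5 and 466 for FBB1.7, 432 and 499.8 for FBB1.10 and 364 and 408 for FBB1.11. FBB1.7 and FBB1.10 were highest and FBB1.11 came next, with differences of 0.49 (limma adjusted p = 0.00807) in FBB1.7 and 0.51 (adjusted p = 0.0234) in FBB1.10. Sdf2l1, a partner of Dnajb11 and Hspa5, read 418 and 527 on the parental arrays, 451 and 537 on those of FBB1.5, 599.5 and 699 for FBB1.7, 555 and 691 for FBB1.10 and 517 and 548 for FBB1.11. The parental arrays of Sdf2l1 stood apart from each other, FBB1.7 and FBB1.10 lay above both, and the difference of 0.45 passed in FBB1.7 (limma adjusted p = 0.0442) while 0.39 in FBB1.10 did not (adjusted p = 0.165). Leaving out 1 array ended the calls of Manf, Sdf2l1 and Canx. By its brightest probe set, Canx was lost in FBB1.7 without either parental or either FBB1.7 array (adjusted p up to 0.152) and in FBB1.10 without parental 2, FBB1.10 1 or either FBB1.7 array (up to 0.282). Sdf2l1 was lost without parental 1 or any array of FBB1.7 or FBB1.11 (up to 0.273), and Manf without either FBB1.7 array in FBB1.7 (up to 0.0735) and without either FBB1.10 array in FBB1.10 (up to 0.193).

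Dnajb11 (ERdj3), the J-domain partner of Hspa5 that binds new chains, read 305 and 331 for the parental line, 294 and 267 for FBB1.5, 384 and 397 for FBB1.7, 429 and 425 for FBB1.10 and 339.5 and 340.0 for FBB1.11. FBB1.7 and FBB1.10 lay above the parental line and FBB1.5 below it, and Dnajb11 passed the comparison between subclones (limma moderated F test, adjusted p = 0.00760) but not against parental (0.28 in FBB1.7, adjusted p = 0.0860, and 0.41 in FBB1.10, adjusted p = 0.0509). Creld2, an ER stress inducible gene, differed by 0.36 in FBB1.7 and by 0.27 in FBB1.10 and did not pass. The remaining chaperones gave no call in any subclone. They are Hyou1 (GRP170), the nucleotide exchange factor of Hspa5, with differences of 0.02 to 0.14 over the 4 subclones, and Dnajb9 (ERdj4), a J-domain protein induced through Xbp1, with -0.06 to 0.13. For Hyou1 the 95% interval in FBB1.7 was -0.20 to 0.24, which does not reach the 0.80 measured for Hsp90b1.

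**Figure D2:**
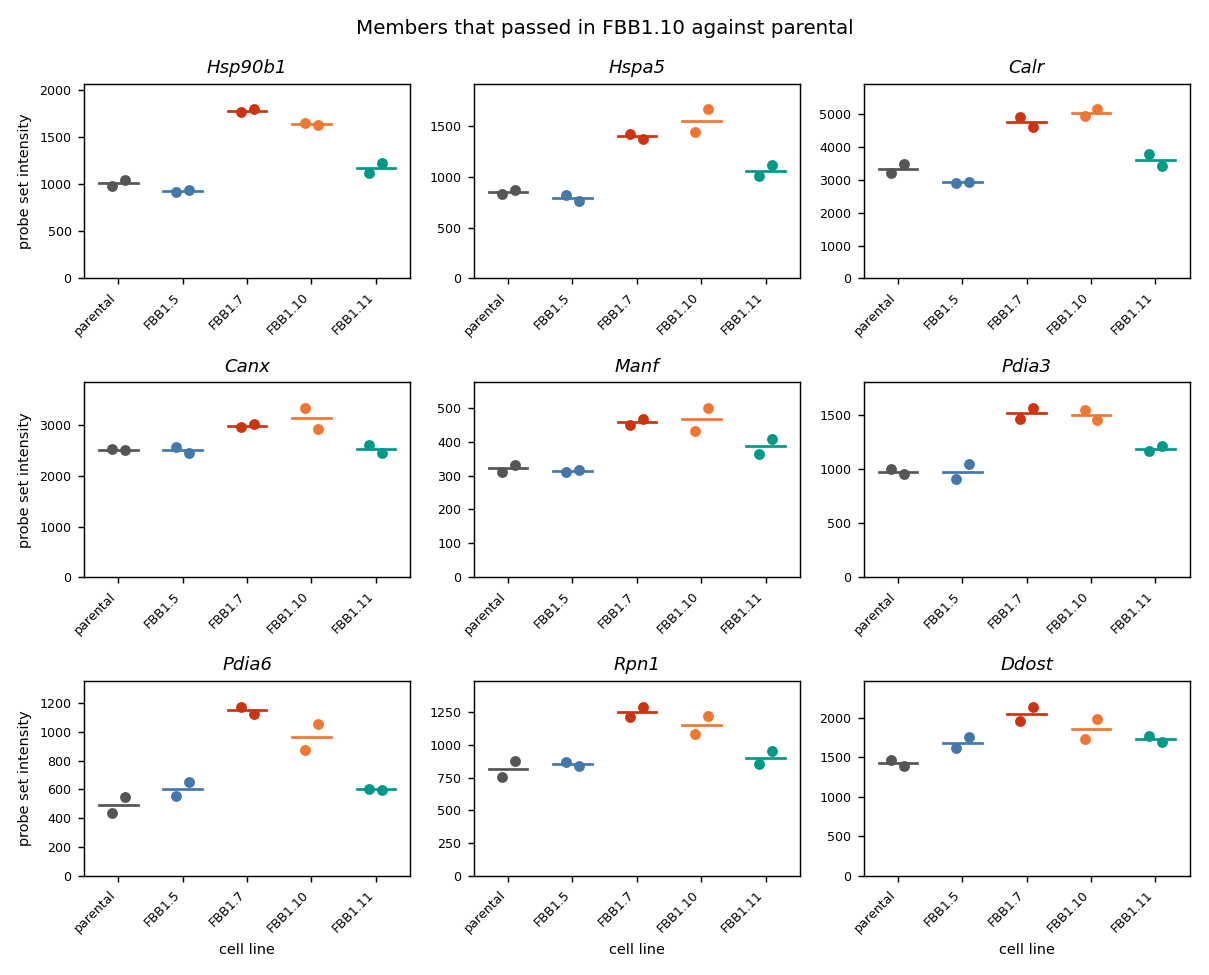
Probe set intensity (linear axis from 0) of the 9 members that passed in FBB1.10 against parental, 1 panel per gene; points are single arrays, 2 per cell line, and bars are line means. In each panel the arrays of FBB1.7 and FBB1.10 stand above the parental arrays, as for Pdia6 with 874 to 1175 against 438 and 544.

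Of the 8 oxidoreductases and isomerases, 3 rose in FBB1.7 (Pdia3, Pdia6 and Ppib), 2 in FBB1.10 (Pdia3 and Pdia6) and 1 in FBB1.5 (Txndc5). The median difference of the 8 was 0.25 for FBB1.7 and 0.20 for FBB1.10, with 0.20 for FBB1.11 and 0.06 for FBB1.5. Pdia6 (P5), a disulfide isomerase that works with Hspa5, had the largest difference of any member. Its intensities were 438 and 544 on the parental arrays, 554 and 649 on those of FBB1.5, 1175 and 1126 for FBB1.7, 874 and 1056 for FBB1.10 and 602 and 599 for FBB1.11. FBB1.7 and FBB1.10 did not overlap the other lines, while FBB1.5 and FBB1.11 lay within about the same range, just above parental. The log2 difference was 1.21 (SE 0.12, 2.31-fold, limma adjusted p = 2.86e-05) in FBB1.7 and 0.95 (SE 0.12, 1.94-fold, adjusted p = 0.000892) in FBB1.10. A second, dim probe set of Pdia6 gave 0.27 and -0.09 and did not pass.

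Pdia3 (ERp57), the isomerase that acts on glycoproteins held by Calr and Canx, read 999 and 952 for the parental line, 908 and 1046 for FBB1.5, 1469 and 1569 for FBB1.7, 1553 and 1459.6 for FBB1.10 and 1165 and 1211 for FBB1.11. The 4 arrays of FBB1.7 and FBB1.10 were highest, FBB1.11 came next, and FBB1.5 overlapped the parental line. The differences were 0.63 (1.55-fold, limma adjusted p = 0.000316) in FBB1.7 and 0.62 (1.53-fold, adjusted p = 0.00191) in FBB1.10. Txndc5 (ERp46), another disulfide isomerase, had another order of lines. It read 325 and 334 on the parental arrays, 497 and 449 on those of FBB1.5, 317 and 295 for FBB1.7, 311 and 323 for FBB1.10 and 378 and 373 for FBB1.11, so that FBB1.5 was the highest line, FBB1.11 came next, and the arrays of FBB1.7 and FBB1.10 lay below both parental arrays. Txndc5 rose by 0.50 (SE 0.10, 1.41-fold, limma adjusted p = 0.0174) in FBB1.5, a call lost without FBB1.5 1 (adjusted p = 0.105), and its other probe set gave 0.43 there and did not pass.

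Ppib, the prolyl isomerase cyclophilin B, read 1568 and 1673 for the parental line, 1638 and 1828 for FBB1.5, 2103 and 1985 for FBB1.7, 1903 and 1546 for FBB1.10 and 1851 and 1909 for FBB1.11. FBB1.7 was the highest line and the arrays of FBB1.10 lay far apart, on either side of the parental values. Its difference of 0.33 passed in FBB1.7 (limma adjusted p = 0.0305) and was lost without parental 1 or either FBB1.7 array (up to 0.205), and the other probe set of Ppib gave 0.12. The other 4 did not pass in any subclone. Pdia4 (ERp72) differed by 0.21 in FBB1.5 up to 0.46 in FBB1.10, with the 2 parental arrays at 326 and 263. P4hb, the classical protein disulfide isomerase, stayed between 0.03 and 0.17. Erp44, which retains partly assembled proteins in the early secretory pathway, ranged from -0.09 to 0.24, and Erp29, a chaperone of the disulfide isomerase family, from -0.12 to -0.04.

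In the translocon, signal peptidase and glycosylation class, 12 of 13 listed members were tested, of which 5 rose in FBB1.7. In FBB1.10, 2 rose (Rpn1 and Ddost), and in FBB1.5 1 (Ssr2). The median difference was 0.23 for FBB1.7 and 0.16 for FBB1.10, with 0.08 for FBB1.11 and 0.03 for FBB1.5. Rpn1, a subunit of oligosaccharyltransferase, read 753 and 877 on the parental arrays, 867 and 836 on those of FBB1.5, 1209 and 1291 for FBB1.7, 1083 and 1219 for FBB1.10 and 853 and 949 for FBB1.11. FBB1.7 and FBB1.10 were above all other arrays, and the log2 differences were 0.61 (1.53-fold, limma adjusted p = 0.00103) and 0.49 (1.41-fold, adjusted p = 0.0189). All 5 tested probe sets of Rpn1 passed in both subclones, and in 4 of them the name marks probes that other genes may share. Ddost, another subunit of the same enzyme, read 1460.0 and 1386 for the parental line, 1617 and 1754 for FBB1.5, 1956 and 2141 for FBB1.7, 1734 and 1981 for FBB1.10 and 1763 and 1696 for FBB1.11. Every array of every subclone was above both parental arrays, and the difference passed in FBB1.7 (0.52, limma adjusted p = 0.000943) and likewise in FBB1.10 (0.38, adjusted p = 0.0279) but not in FBB1.5 (0.24) or FBB1.11 (0.28). In FBB1.10 the call of Rpn1 was lost without FBB1.10 2 (adjusted p = 0.165), and that of Ddost without parental 2 or FBB1.10 2 (up to 0.225). Rpn2, a further subunit, differed by 0.25 in FBB1.7 (adjusted p = 0.0610) and 0.27 in FBB1.10 (adjusted p = 0.0981).

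The 4 genes Ssr1 to Ssr4 encode the translocon-associated protein complex, which sits beside the Sec61 channel. Ssr2 read 705 and 742 on the parental arrays, 919 and 1034 on those of FBB1.5, 1137 and 1192 for FBB1.7, 886 and 934 for FBB1.10 and 871 and 912 for FBB1.11. Parental was the lowest line with no overlap with any subclone, and FBB1.7 was the highest. Ssr2 passed in FBB1.5 (0.42, SE 0.08, limma adjusted p = 0.0181) and in FBB1.7 (0.67, 1.6-fold, adjusted p = 0.000218), where it held with any 1 array left out, while the FBB1.5 call was lost without FBB1.5 2 (adjusted p = 0.169). Ssr4 read 1912 and 1779 for the parental line, 1897 and 1967 for FBB1.5, 2374 and 2229.9 for FBB1.7, 1995 and 1967 for FBB1.10 and 1984 and 2105 for FBB1.11. FBB1.7 alone lay above all other arrays of Ssr4, with a difference of 0.32 (limma adjusted p = 0.00806) that was lost without parental 2 or FBB1.7 1 (up to 0.105), and its 2 dimmer probe sets gave 0.23 and 0.14 and did not pass. Ssr1 (0.11 to 0.15) and Ssr3 (-0.11 to -0.05) did not pass in any subclone.

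Sec61b, a small subunit of the Sec61 channel, read 2499.8 and 2604 on the parental arrays, 2452 and 2613 on those of FBB1.5, 2904 and 3016 for FBB1.7, 2736 and 2700.2 for FBB1.10 and 2546 and 2647 for FBB1.11. FBB1.7 was again highest, and its difference of 0.21 (limma adjusted p = 0.0363) was the smallest that passed and was lost without any 1 array of the parental line, FBB1.7 or FBB1.11 (up to 0.205). Sec61a1, which forms the channel itself, differed by -0.19 in FBB1.7 to -0.09 in FBB1.10 and did not pass. Its 6 probe sets disagreed. In 1 of the dimmer ones, the intensities were 454 and 168 on the parental arrays and 307 and 468 in FBB1.5, with the low values on parental 2 and FBB1.5 1. Those arrays have the highest actin ratio (3′ over 5′ control probe sets, which rises as RNA is degraded), 1.80 and 1.47 against 1.06 to 1.22 on the other 8. The part of RNA quality in this was not tested, and no probe set of Sec61a1 passed.

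Sec11c, a catalytic subunit of signal peptidase, read 642 and 762 for the parental line, 622 and 564 for FBB1.5, 807 and 873 for FBB1.7, 899.9 and 713 for FBB1.10 and 627 and 720.5 for FBB1.11. FBB1.5 was low and FBB1.7 high, FBB1.10 was split between its arrays, and Sec11c passed only between subclones (limma moderated F test, adjusted p = 0.0460), a call lost without any 1 of 7 arrays of the subclones (all but FBB1.10 2, up to 0.174). The other signal peptidase subunits, Spcs2 (0.08 to 0.26) and Spcs3 (-0.12 to 0.03), did not pass.

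**Figure D3:**
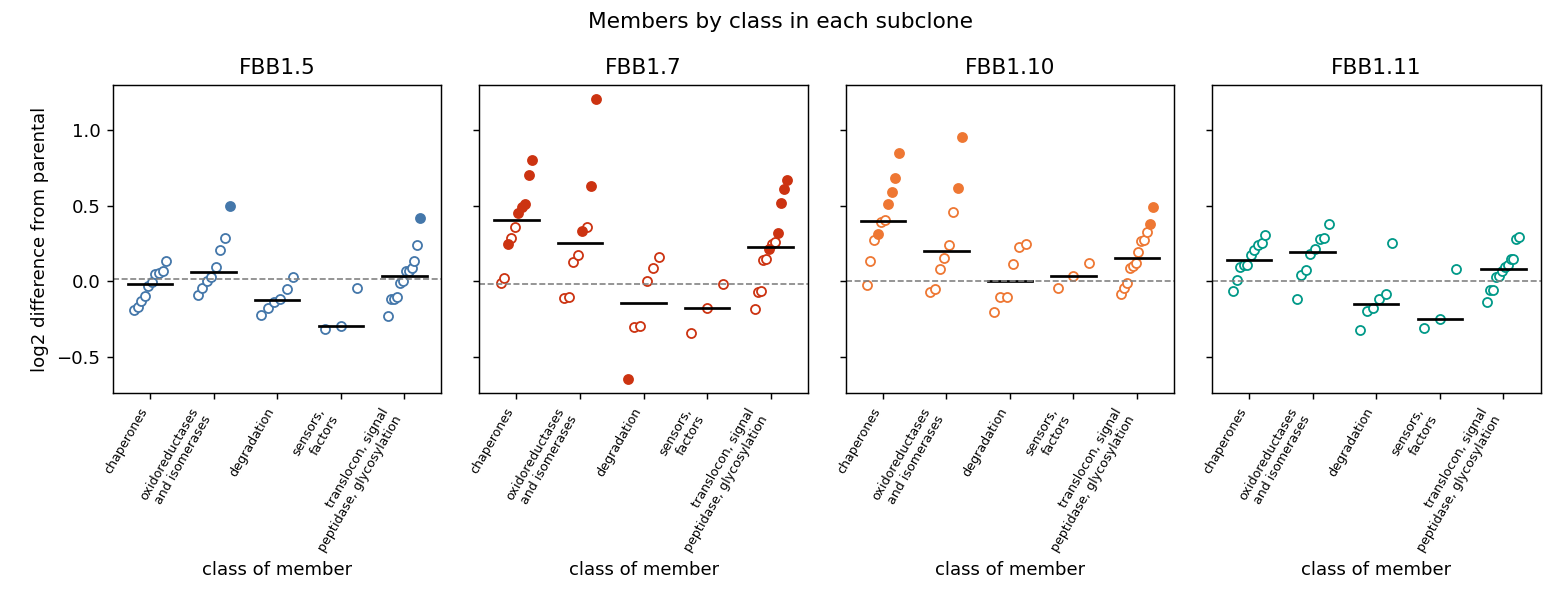
Log2 difference from parental of each tested member, by role, in each subclone; filled points passed the limma test at an adjusted p under 0.05, black bars are class medians and the dashed line is the median over all tested genes. In FBB1.7 and FBB1.10 the chaperones have the highest class median, 0.40. The 6 degradation genes and 3 sensors have no filled point above 0, which in so few genes is near the share of all genes.

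Among the 6 genes that remove misfolded proteins and the 3 that sense them, 0 passed as higher than parental with limma. Of all genes, 4.29% rose in FBB1.7, 0.936% in FBB1.10, 1.38% in FBB1.5 and 0.064% in FBB1.11. In so few members 0 is near these shares and does not set them apart from all genes. Of the 6 degradation members 0 rose in any subclone and 1, Sel1l, fell in FBB1.7, with a class median of -0.15 in FBB1.7 and 0.00 in FBB1.10. Sel1l, the adaptor of the ubiquitin ligase Syvn1, read 306 and 323 on the parental arrays, 292 and 278 on those of FBB1.5, 205 and 185 for FBB1.7, 279.8 and 302 for FBB1.10 and 260.1 and 285 for FBB1.11. FBB1.7 lay far below all other arrays, 1.57-fold below parental (-0.65, SE 0.11, limma adjusted p = 0.00164), and the call held with any 1 array left out. The 4 other probe sets of Sel1l gave -0.26 to 0.27 in FBB1.7 and did not pass, so the fall was seen with 1 probe set of 5. Syvn1 (HRD1), the ligase itself, differed by -0.30 in FBB1.7 (adjusted p = 0.121). Derl1 and Derl2, which help to move proteins out of the ER, ranged from -0.32 to -0.11 and from -0.23 to 0.11 over the subclones by their brightest probe sets. The probe sets of Derl1 disagreed in direction: 1 gave 0.37 in FBB1.7 (limma adjusted p = 0.0860) and 0.53 in FBB1.10 (adjusted p = 0.0526), another -0.01 and 0.16, and none passed. The probe set with 0.37 and 0.53 read 557 and 403 on the parental arrays, with the low value again on parental 2. Herpud1, a scaffold of the ligase complex, differed by 0.23 in FBB1.10 (adjusted p = 0.241) and 0.00 in FBB1.7. Edem1, a lectin that selects glycoproteins for removal, was dim, with the parental arrays at 39.5 and 57.8 against a median of 30.5 over the whole table, and it did not pass.

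The 3 sensors and factors gave 0 calls against parental. Xbp1, the transcription factor whose mRNA is spliced by Ern1, read 574 and 577 for the parental line, 499.7 and 435 for FBB1.5, 484 and 532 for FBB1.7, 678 and 579 for FBB1.10 and 472 and 449.8 for FBB1.11. In this probe set FBB1.10 was above both parental arrays and the other 3 subclones were below them. The 3 other probe sets of Xbp1 gave 0.42, 0.25 and 0.10 in FBB1.10. In FBB1.7 they reached 0.26, where the brightest gave -0.18. None passed against parental, and the lowest adjusted p was 0.0555, in FBB1.10. By its brightest probe set Xbp1 passed between subclones (limma moderated F test, adjusted p = 0.0461), a call lost without any 1 of the 8 tagged arrays (up to 0.371), and no value here separates its spliced from its unspliced form. Ern1 differed by -0.32 (FBB1.5), -0.34 (FBB1.7), -0.25 (FBB1.11) and -0.05 (FBB1.10), and Atf6 stayed between -0.05 and 0.08. Neither passed, and the 95% interval of Atf6 in FBB1.7 was -0.27 to 0.24.

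**Figure D4:**
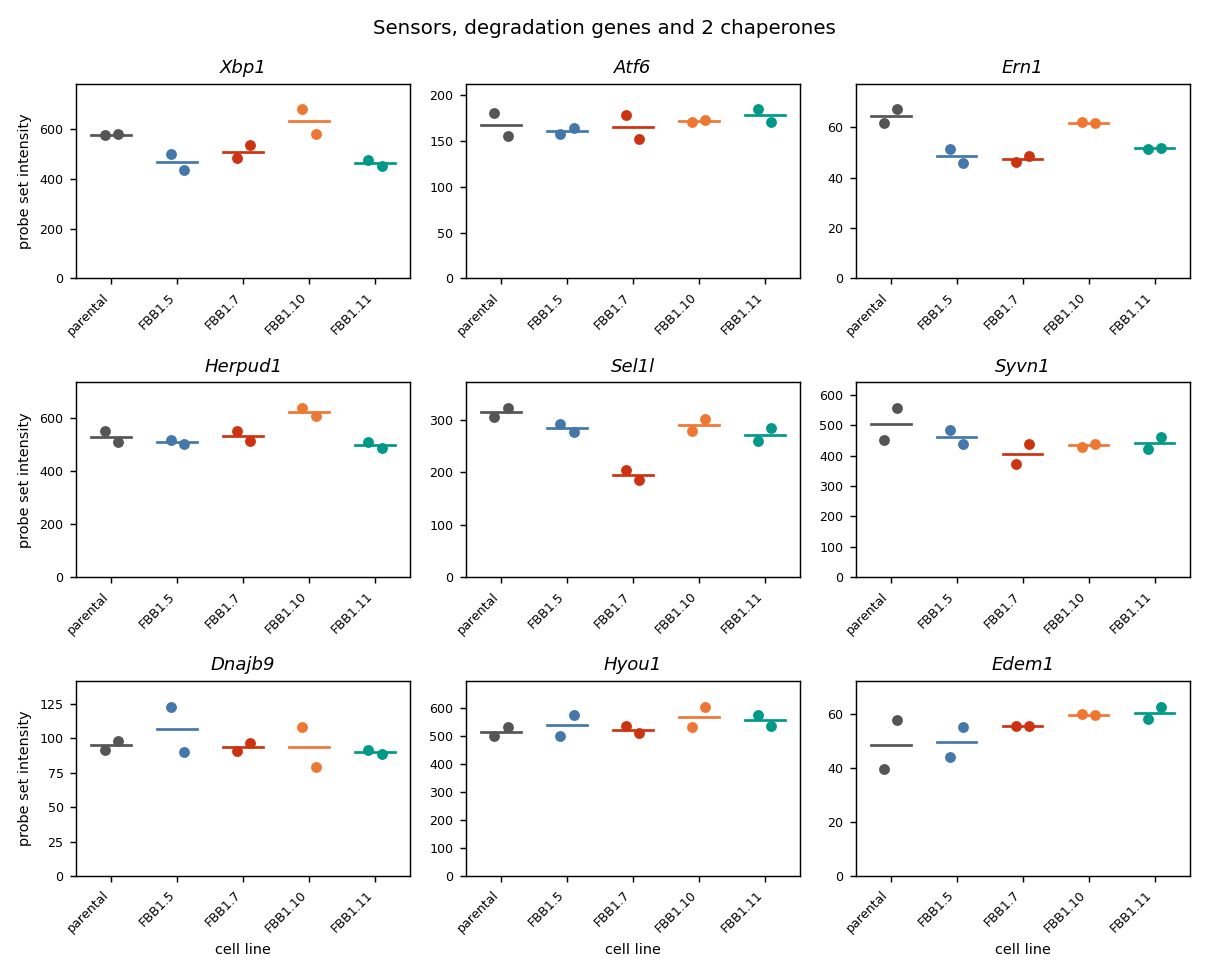
Probe set intensity (linear axis from 0) of the 3 sensors and factors, 4 degradation genes and the chaperones Dnajb9 and Hyou1, 1 panel per gene; points are single arrays, 2 per cell line, and bars are line means. FBB1.7 stands apart from the other lines in the panel of Sel1l, at 205 and 185 against 260 to 323, and the lines overlap in most other panels.

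The subclones differed among themselves at these genes. In the moderated F test over the 4 subclones, 14 of 39 members passed (35.9%), where 8.07% of all genes did: Hsp90b1, Hspa5, Calr, Canx, Dnajb11, Manf, Pdia3, Pdia6, Txndc5, Sel1l, Xbp1, Ssr2, Sec11c and Rpn1. Beside Xbp1 and Sec11c, Manf lost this call without FBB1.5 1 (adjusted p = 0.0709), Sel1l without either FBB1.7 array (up to 0.184) and Ssr2 without either array of FBB1.7 or FBB1.11 or without FBB1.10 1 (up to 0.254). Each of the 6 pairs of subclones was then compared in the same fit, a step added after the data were seen. The fewest calls were between FBB1.7 and FBB1.10, where 0 members passed with limma, against 0.112% of all genes. With so low a share of all genes, 0 of 39 is no result about the members. At an unadjusted p under 0.05 the count for this pair was 8 of 39 members, and 20 of the 137 other pathway genes described further below. The share of all genes was not counted there. The difference of FBB1.10 minus FBB1.7 was 0.15 for Hspa5 (95% interval -0.04 to 0.34), -0.12 for Hsp90b1 (-0.27 to 0.04) and -0.26 for Pdia6 (-0.50 to -0.01). Against FBB1.5, 13 members were higher and 2 lower (Txndc5 and Sel1l) in FBB1.7, where 10.3% of all genes passed, and 10 were higher and 1 lower (Txndc5) in FBB1.10, where 4.25% passed. Those higher in FBB1.10 than in FBB1.5 include Xbp1 (0.41, limma adjusted p = 0.0393). Against FBB1.7, 7 members were lower in FBB1.11 (Hsp90b1, Hspa5, Calr, Pdia3, Pdia6, Ssr2 and Rpn1) and Sel1l was higher, where 3.59% of all genes passed.

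FBB1.11 took a place between the other subclones for 3 chaperones. It was above FBB1.5 for 3 members, Hsp90b1 (0.34, limma adjusted p = 0.0345), Hspa5 (0.41, adjusted p = 0.0329) and Calr (0.30, adjusted p = 0.0255), where 1.63% of all genes passed. It was below FBB1.10 for 4 members, with differences of -0.48 for Hsp90b1, -0.54 for Hspa5, -0.49 for Calr and -0.66 for Pdia6, where 0.28% of all genes passed. For Pdia6, FBB1.11 and FBB1.5 did not differ measurably (0.00, 95% interval -0.25 to 0.25).

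The 8 tagged arrays were also set against the parental arrays as a whole. With the mean of the 4 subclones in the fit of line means, 8 members rose and 0 fell (Hsp90b1, Hspa5, Calr, Pdia3, Pdia6, Ssr2, Rpn1 and Ddost), against 1.82% and 1.95% of all genes. The largest was Pdia6 (0.68, SE 0.09, 1.61-fold, limma adjusted p = 0.00133), followed by Hspa5 (0.44) and Ssr2 (0.43). This average treats the 4 clones as fixed and hides the differences between them. With each cell line entered as a random block instead, 0 members and 0% of all genes passed in limma. At an unadjusted p under 0.05 that fit counts 5 members and 1043 of 12496 genes, and the lowest adjusted p of a member was 0.38. Of the 8 calls, those of Calr (without parental 1, adjusted p = 0.0703), Pdia3 (without parental 2, 0.0581), Ddost (without parental 2, 0.0700) and Rpn1 (without parental 1, FBB1.7 2, FBB1.10 2 or FBB1.11 2, up to 0.179) were lost when 1 array was left out, and all 8 when eBayes ignored intensity.

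The cells and arrays were checked against markers. On every array the erythroid factors Gata1 and Klf1 and the receptors Epor and Tfrc were well above the table median of 30.5, and the own probe sets of Hba-a1 and Slc4a1 were below it. Tal1 (318 to 456), Alas2 (58.9 to 108) and a probe set that Hbb-b1 shares with other genes (865 to 1177) were also above it on all 10 arrays. Of 6 tested probe sets of Bcl11a, the 1 with the largest differences read 35.9 to 39.7 on the parental arrays, 62.1 to 95.8 in FBB1.5, 62.4 to 65.0 in FBB1.7, 165 to 233 in FBB1.10 and 181 to 245 in FBB1.11. It passed with limma in FBB1.5 (adjusted p = 0.0408), FBB1.10 and FBB1.11, but not in FBB1.7 (adjusted p = 0.0711). A link between the level of tagged BCL11A and the ER genes was not tested. Another probe set of Bcl11a fell in FBB1.7 (log2 difference -0.47, limma adjusted p = 0.0148), and the rest of the 6 passed in no subclone. The 8 mast cell markers, of which 6 were above the median on at least 2 arrays and Ms4a2 and Fcer1a on 0, summed to 5434 to 6564 in the parental line, 4963 to 6299 in FBB1.5, 840.2 to 956 in FBB1.7, 2093 to 2609 in FBB1.10 and 1717 to 1747 in FBB1.11. Mcpt2 alone makes up most of that sum, at 4933 to 5974 in the parental line and 630.1 to 716 in FBB1.7, while Tpsb2 read 38.5 to 38.9 and 47.5 to 60.9 in the same lines. The sum of the ER markers Hsp90b1, Hspa5, Calr and Pdia6 was 5468 to 5939, 5192 to 5297, 8926 to 9268, 8896 to 9515 and 6359 to 6515 in the same order. In FBB1.7, FBB1.10 and FBB1.11 the mast cell sum lay below parental and the ER marker sum above it, though in FBB1.11 no member passed by its brightest probe set. The part of mast cell transcripts in the results was not tested, and in bulk RNA fewer cells of a type and less RNA per cell cannot be told apart. Plasma cells have abundant ER, and their marker Jchain read 10.2 to 16.2 over the 10 arrays, below the median on each. The other measured B and plasma cell markers went the other way, with Cd79a, Mzb1 and Sdc1 above the median on all 10 arrays and Prdm1 on 4. The sum of the 5 measured markers was 263 to 265 in the parental line, 210.2 to 268 in FBB1.7 and 236 to 266 in FBB1.10. The part of such transcripts in the results was not tested. With parental 2 and FBB1.5 1 both left out, the arrays with the highest actin ratio, 14 members passed in FBB1.7 and 7 in FBB1.10, against 15 and 9 with all arrays.

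Other genes of the same pathway, from 6 lists of 152 names of which 137 were tested, were counted in the same way. In FBB1.7, 9 rose and 8 fell, shares near the 4.29% and 6.39% of all genes, so the genes named from that subclone do not set these lists apart. In FBB1.10 and also in FBB1.5, 6 rose and 1 fell, where 0.936% and 0.872% (FBB1.10) and 1.38% and 0.992% (FBB1.5) of all genes did. For FBB1.11, 0 passed with limma. At an unadjusted p under 0.05, 9 of the 137 were counted there, and 1488 of 12496 genes. Median differences lay between -0.01 (FBB1.11) and 0.02 (FBB1.7). Among 20 co-chaperones and glycoprotein folding genes, Mogs, the first glucosidase of glycan trimming, fell by 0.59 in FBB1.7 (limma adjusted p = 0.00895), and the other 19 did not pass. Dnajc3, Prkcsh and Rcn1 came next by p and differed by 0.41, 0.22 and -0.44 in FBB1.7. Of 20 oxidation and proline isomerisation genes, 2 rose in FBB1.7, namely Prdx4, an ER peroxiredoxin (0.70, adjusted p = 0.00167), and Selenof, an ER selenoprotein (0.52, adjusted p = 0.00163), which also rose in FBB1.10 (0.36). In the same list, Fkbp9 (-0.49) and Tmx1 (-0.35) fell in FBB1.7.

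Of 23 further degradation genes, Ube2j1, a ubiquitin-conjugating enzyme of the ER (-0.52, limma adjusted p = 0.0127), and Erlin2 (-0.52, adjusted p = 0.0265) fell in FBB1.7 and 0 rose in any subclone, while Ngly1 and Erlin1 did not pass. Of 28 targeting, translocation and glycosylation genes, Srprb, a subunit of the signal recognition particle receptor, rose in FBB1.7 (0.84, adjusted p = 0.00447) and likewise in FBB1.10 (0.77, adjusted p = 0.0279). In FBB1.5 a different set of 3 rose, namely Spcs1 of signal peptidase (0.56) and Dad1 (0.58) and Ost4 (0.47) of oligosaccharyltransferase. Spcs1 and Dad1 lie on chromosome 14 and Ost4 on chromosome 5.

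Of 17 genes of the other sensors and the PERK arm, Nupr1, a stress-induced chromatin protein, rose in FBB1.7 (0.56, limma adjusted p = 0.00164) and likewise in FBB1.10 (0.48, adjusted p = 0.0193). Atf4, the transcription factor translated when PERK is active, rose in FBB1.5 (0.43, adjusted p = 0.0331) and likewise in FBB1.10 (0.43, adjusted p = 0.0400), and its target Trib3 in FBB1.10 (0.41). Ddit3 (CHOP) fell in FBB1.5 (-0.52, adjusted p = 0.0196) and differed by 0.15 in FBB1.7 and 0.29 in FBB1.10. Of 29 genes of vesicle transport from the ER, 4 rose and 3 fell in FBB1.7. Sec13, a coat subunit of these vesicles, read 298 and 389.9 on the parental arrays, 298 and 314 on those of FBB1.5, 679 and 647 for FBB1.7, 495 and 519 for FBB1.10 and 363 and 429.7 for FBB1.11, with FBB1.7 and FBB1.10 above all other arrays (log2 differences 0.93 and 0.55, adjusted p = 0.000315 and 0.0354). Kdelr1, a receptor that returns escaped ER chaperones, fell in the same subclones (-0.64 and -0.52, adjusted p = 0.00460 and 0.0481). The coat subunit Sec24d rose (0.53) and Sec16a, which organises the exit sites, fell (-0.39) in FBB1.7.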

How the data were processed

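Total RNA of 10 samples was measured on arrays. Per the labels' protocols, oligo-dT primed cDNA was transcribed into biotinylated cRNA and stained with a streptavidin dye. The authors deposited linear probe set intensity values, with a summary method and scaling that the sources do not name. The 45101 probe sets include 64 controls, which were dropped. The rest were analysed as log2(intensity + 16), with no further normalization, as array medians differed by 0.0623. Tests covered the 25061 probe sets above the table median of 30.5 on at least 2 arrays. Gene names come from the platform annotation (34958 probe sets have 1 symbol, 932 several and 9211 none).

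limma 3.58.1 in R 4.3.3 (statmod 1.5.0) fitted 5 line means with eBayes and an intensity trend (5 residual degrees of freedom, 9.92 from the prior). Tests were two-sided. It also fitted tagged against parental with the line as a random block (consensus correlation 0.211). Scripts were tested on simulated data. Figures were drawn with matplotlib 3.10.9. With 2 arrays a line, their number limits the precision. Members and lists were chosen with earlier results of these data known. Named further genes are the 4 of each list with the smallest adjusted p. The windows of Creld2 and Syvn1 were added after values were seen. Alternatives covered the pseudocount, normalization, filter, variance model, replicate block, actin ratio, probe set choice and arrays left out.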

Additional observations from a re-analysis of the deposited data

Results flagged for a closer look

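The difference from the parental line varied between the 4 subclones for 14 members, by the moderated F test of limma adjusted over all tested probe sets. The adjusted p was 1.29e-05 for Hsp90b1, 7.66e-05 for Hspa5, 1.29e-05 for Calr, 0.0113 for Canx, 0.00760 for Dnajb11 and 0.0107 for Manf among the chaperones. It was 0.000658 for Pdia3, 0.000298 for Pdia6 and 0.00423 for Txndc5 among the disulfide isomerases. For Sel1l, Xbp1, Ssr2, Sec11c and Rpn1 it was 0.0127, 0.0461, 0.0322, 0.0460 and 0.00421. Txndc5 was highest in FBB1.5, and the 5 folding genes with an adjusted p under 0.001 (Hsp90b1, Hspa5, Calr, Pdia3 and Pdia6) were highest in FBB1.7 or FBB1.10.

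Over the 137 tested genes of the wider pathway, 17 passed the same test (12.4%), where 8.07% of all genes did. Of these, 12 are among the named genes. Those were picked by their smallest adjusted p in this same fit, so the count of 12 is no result about the lists. The adjusted p was 0.0268 for Mogs, 0.00453 for Prdx4, 0.0367 for Fkbp9, 0.0142 for Selenof, 0.0142 for Ngly1 and 0.000492 for Sec13. The 3 genes Spcs1, Dad1 and Ost4, which rose in FBB1.5, gave 0.00256, 0.0498 and 0.000778. The stress genes Ddit3, Trib3 and Nupr1 gave 0.000999, 0.0419 and 0.000906.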

How the results depend on the processing

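Of 48 calls of single members over the 5 comparisons that made any, 15 held under all 20 alternatives and 27 held whenever 1 array was left out. Each call was read under each alternative, and 137 of these 960 readings lost the call. Among readings with a direction, 0 changed it, while the 14 calls of the F test between subclones have no direction to change. Without the intensity trend in eBayes, the members that passed fell to 0 in FBB1.5, 0 in FBB1.10, 6 between subclones and 0 for the mean of the subclones. Without the intensity filter, FBB1.10 had 5, and with any probe set counting, FBB1.11 had 1. When 1 array was left out, the count ran from 1 to 2 in FBB1.5, 9 to 15 in FBB1.7, 6 to 11 in FBB1.10, 0 to 0 in FBB1.11, 10 to 14 between subclones, 6 to 9 for the mean and 0 to 0 with the line as a random block. With the actin ratio as a covariate, 10 passed in FBB1.7 and 6 in FBB1.10. The median difference of the members became -0.0489 (quantile normalization) and -0.0395 (median centring) in FBB1.5, 0.21 and 0.17 (pseudocounts 1 and 64), 0.14 (quantile) and 0.14 (centring) in FBB1.7, 0.15 (pseudocount 64) and 0.16 (centring) in FBB1.10, and 0.0663 (centring) in FBB1.11. Array numbers shared between lines showed no strong common effect: over 10 pairs of lines the difference of array 1 minus array 2 correlated at -0.16 to 0.18 across probe sets, and in 1 pair above 0.1. These correlations cannot show whether arrays of the same number were handled together. With the replicate block, the counts were 2 (FBB1.5), 15 (FBB1.7), 11 (FBB1.10), 0 (FBB1.11), 14 between subclones, 9 for the mean and 0 with the line as a random block.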
